A study of Mus musculus with 2 samples.

Results

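The synaptic vesicle release genes are 33 genes of the machinery that docks, primes and fuses synaptic vesicles, chosen by their gene symbols out of 32286 features in the deposited table. They comprise 16 synaptotagmins (Syt1 to Syt7, Syt9 to Syt17), 4 Rab3-interacting molecules (Rims1 to Rims4), 3 synapsins (Syn1 to Syn3), 3 complexins (Cplx1 to Cplx3), 3 synaptic vesicle glycoproteins (Sv2a to Sv2c), synaptosomal-associated protein Snap25, syntaxin Stx1a and the vesicle-associated membrane proteins Vamp1 and Vamp2. Each symbol matched 1 feature. Single nuclei of mouse vagus nerve ganglia were sequenced from 1 Female and 1 Male library, so every value below compares nuclei within or between 2 libraries and carries no test. The mice of both libraries were C57BL/6J with a Rosa26-floxed-STOP-Cas9-eGFP allele, aged 8 to 9 weeks when bought, on standard chow, and had received AAVrg-Cre, a virus taken up by nerve endings and carried back to the cell body, in the liver 4 weeks before collection. The female library pooled the ganglia of 7 mice and the male library those of 8 mice. Whole ganglia were used, with the tissue around the neurons.

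A nerve cell releases transmitter when calcium enters an active zone and a docked vesicle fuses with the plasma membrane. The SNARE proteins on the vesicle and on the plasma membrane zipper together to drive fusion, complexins hold and promote that step, and synaptotagmins on the vesicle couple it to calcium. RIM proteins build the active zone beside the calcium channels, synapsins tether the reserve of vesicles, and SV2 proteins are transporter-like glycoproteins of the vesicle membrane. Vagal sensory neurons use this machinery at their central endings in the brainstem, whereas the nuclei measured here lie in the cell bodies of the ganglia.

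The female library held 3791 nuclei with 17435300 unique molecular identifiers (UMIs, each a counted RNA molecule) and the male library 4923 nuclei with 27529730 UMIs. The median was 2381 UMIs per female nucleus and 2658 per male nucleus, and 8 barcodes occurred in both libraries. Xist, expressed from an inactive X chromosome, had 13424 female and 7 male UMIs, and the Y-linked gene Uty had 1 and 4677, as the labels of the libraries say. Nuclei were clustered again without the 33 genes, and the clusters were sorted into classes by marker genes. The vagal neuron-like class held 2297 nuclei (675 female and 1622 male) with a median of 7258 UMIs. It was made up of a jugular neuron-like cluster (274 nuclei), a nodose neuron-like cluster (433 nuclei) and 3 clusters with the general neuron list highest. These 3 are called here by a leading gene, Cntnap5a (612 nuclei), Trpm8 (489 nuclei) and Hs3st4 (489 nuclei). In the Trpm8-led cluster the jugular list came close behind (mean log2 fold 0.48 against 0.56). So did the nodose list in the Hs3st4-led cluster (0.58 against 0.69). In the Cntnap5a-led cluster the neuron list averaged 0.35 and the nodose list 0.08. The Hs3st4-led cluster was shallow, with a median of 2009 UMIs. Non-neuronal nuclei numbered 5695 with a median of 2123 UMIs, in satellite glia-like, Schwann cell-like, fibroblast-like, barrier fibroblast-like, endothelial cell-like and macrophage-like classes and 2 unnamed clusters. The study's own clusters were not used, and it counted more of the nuclei as vagal sensory neurons than the vagal neuron-like class holds. Some nuclei called non-neuronal here were thus neurons in the study's labels. The 404 granule-like nuclei carried markers of cerebellar granule cells, a neuron of the hindbrain and not of the vagal ganglia, and the list of inhibitory neurons also stood high in them (mean log2 fold of at least 0.8). They made up 10.1% of the female nuclei (382) and 0.447% of the male nuclei (22). A further 318 nuclei, led by the pituitary list but with markers of other cells, stayed unnamed and entered no comparison.

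Levels are UMIs summed over the nuclei of a class per 10000 UMIs of that class, and intervals are 95% intervals that cover counting error only. A gene was counted as higher or lower where the level over both libraries differed at least 2-fold, on the same side in each library, with at least 20 UMIs in the 2 classes together. Ratios are log2 ratios of levels with 0.5 UMIs added. Because levels are shares of a class's UMIs, a change in 1 gene's RNA cannot be told apart from a change in the rest of the RNA.

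Promoter windows of the RefSeq annotation (GRCm38.p6) were on hand for 22 of the 33 genes, each covering the 250 bases before the start. Of the windows nearest to the genes' starts, 77.3% (17 of 22) held the GC box GGGCGG on either strand, a site that Sp1-type factors bind, against 32.7% of 32851 windows. The TATA box TATAAA was found in 1 of the 22 windows (4.55%, that of Sv2b) against 12.4%, and the cAMP response element TGACGTCA in 1 of 22 (4.55%, that of Syn1) against 1.55% (all searched on both strands, with no overlap between the 3 motifs' letters). The median GC content was 63.8% against 52.4%. The sets were not chosen alike. The 22 genes had 30 windows, of which only the nearest of each gene was counted. The 32851 windows include the further windows of a gene. A match is a run of letters and not a shown site. Not every counted window lies just before the annotated start of its gene. The RefSeq start of Syt11 lay 2565 bases past that start and the one of Syt15 451 bases past it. All 250 bases of these windows lay in exons, and both held a GC box. The RefSeq start of Cplx2 lay far before the annotated one. The windows below were chosen with the values known, among the nearest windows that overlap no annotated exon of their gene: Syt14, with the largest ratio of neuron-like over non-neuronal nuclei, Rims1 and Sv2b, higher in granule-like nuclei, and Sv2c and Stx1a, lower there. They lie at chr1:193035776-193036025 (minus strand), chr1:22806159-22806408 (minus strand), chr7:75309263-75309512 (minus strand), chr13:96132578-96132827 (minus strand) and chr5:135023232-135023481 (plus strand), and capitals mark the letters of a GC box or, in Sv2b, of the TATA box, read on either strand.
Syt14: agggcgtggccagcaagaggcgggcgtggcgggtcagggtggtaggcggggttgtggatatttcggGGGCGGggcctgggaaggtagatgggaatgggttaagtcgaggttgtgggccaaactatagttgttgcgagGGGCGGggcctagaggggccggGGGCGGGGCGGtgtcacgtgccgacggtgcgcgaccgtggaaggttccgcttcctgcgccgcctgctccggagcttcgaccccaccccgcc
Rims1: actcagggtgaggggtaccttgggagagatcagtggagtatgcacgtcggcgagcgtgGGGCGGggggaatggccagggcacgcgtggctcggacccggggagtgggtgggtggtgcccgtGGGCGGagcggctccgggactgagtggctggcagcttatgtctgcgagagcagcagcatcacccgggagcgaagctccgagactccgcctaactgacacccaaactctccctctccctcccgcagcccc
Sv2b: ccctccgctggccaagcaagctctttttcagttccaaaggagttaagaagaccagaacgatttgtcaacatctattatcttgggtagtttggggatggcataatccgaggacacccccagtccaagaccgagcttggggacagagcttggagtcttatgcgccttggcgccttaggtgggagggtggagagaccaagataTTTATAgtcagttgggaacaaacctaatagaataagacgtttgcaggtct
Sv2c: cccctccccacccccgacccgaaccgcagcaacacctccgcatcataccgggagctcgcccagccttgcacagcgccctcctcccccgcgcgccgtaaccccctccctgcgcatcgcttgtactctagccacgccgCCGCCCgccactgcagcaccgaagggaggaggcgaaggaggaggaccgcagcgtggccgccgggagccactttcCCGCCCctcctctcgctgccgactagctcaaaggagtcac
Stx1a: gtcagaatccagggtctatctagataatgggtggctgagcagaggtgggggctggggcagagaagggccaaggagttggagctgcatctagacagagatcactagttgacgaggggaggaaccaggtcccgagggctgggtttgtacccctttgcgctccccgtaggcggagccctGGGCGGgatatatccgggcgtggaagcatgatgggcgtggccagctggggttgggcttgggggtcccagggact
The window of Sv2b was the one of the 5 without a GC box.

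**Figure D1:**
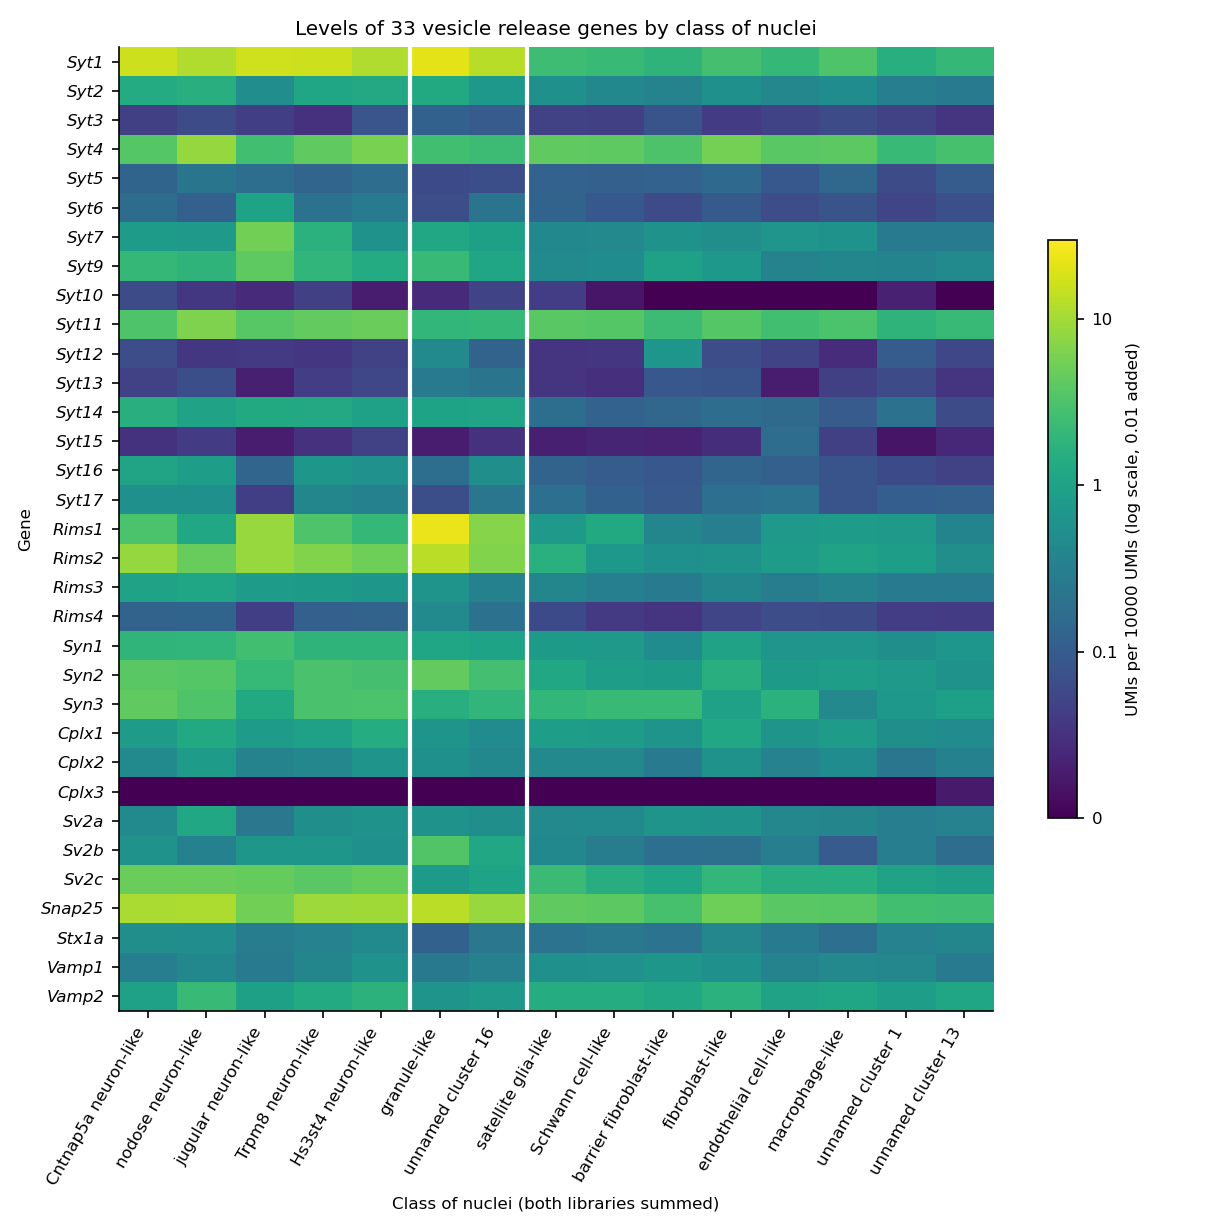
Level of each of the 33 genes (rows, grouped by role) in each class of nuclei (columns), both libraries summed, as a colour on the log10 scale of UMIs per 10000 UMIs. Brighter cells stand for higher levels, and Syt1, Snap25 and Rims2 are among the brightest rows in the neuron-like columns, with Syt1 at 15.1 over all vagal neuron-like nuclei, whereas Cplx3 is dark throughout, with 1 UMI in all.

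In vagal neuron-like nuclei, 18 of the 32 genes with enough UMIs were at least 2-fold higher than in non-neuronal nuclei, 1 was at least 2-fold lower (Syt12) and 13 were neither. Among all 19074 genes under the same rule, 15% were higher and 19.9% lower. The median log2 ratio of the 32 genes was 1.37, that of all genes -0.23. Cplx3, a complexin of retinal ribbon synapses, had 1 UMI in all nuclei and was left out.

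Of the 4 SNARE proteins, only Snap25 passed the rule. Snap25, the plasma membrane SNARE that contributes a pair of helices, was at 9.52 in female and 9.84 in male vagal neuron-like nuclei, against 2.78 and 4.54 in non-neuronal nuclei (log2 ratio 1.37, 1.33 to 1.42). Both libraries thus had it higher in neurons, the female one by more. Stx1a, its partner on the plasma membrane, was at 0.461 and 0.44 against 0.236 and 0.289 (log2 ratio 0.75, 0.58 to 0.91), on the same side in both libraries but under 2-fold. Vamp2, the main vesicle SNARE of forebrain synapses, was at 0.967 and 1.46 against 0.886 and 1.59 (log2 ratio 0.04, -0.04 to 0.12), and the 2 libraries lay on opposite sides. Vamp1, its relative in spinal cord and brainstem, was at 0.258 and 0.371 against 0.471 and 0.526 (log2 ratio -0.58, -0.72 to -0.43), lower in neuron-like nuclei in both libraries but under 2-fold.

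The synaptotagmins divided. Syt1, the calcium sensor of fast release, was at 13.4 in female and 15.9 in male vagal neuron-like nuclei and at 1.64 and 2.72 in non-neuronal nuclei (log2 ratio 2.76, 2.71 to 2.81). Both neuron-like levels were above both non-neuronal levels. Syt14 and Syt16, a related pair that lack the residues for calcium binding, had the largest ratios of the 32 genes. Syt14 was at 1.4 and 1.27 against 0.113 and 0.163 (log2 ratio 3.21, 3.02 to 3.42). Syt16 was at 0.805 and 0.759 against 0.0845 and 0.0968 (log2 ratio 3.08, 2.83 to 3.34). In each the lower neuron-like level was several times the higher non-neuronal one. Syt7, a high-affinity sensor of slow and asynchronous release (1.98), Syt9, another sensor of fast release (2.17), Syt2, the fast sensor of hindbrain synapses (1.49), Syt6 (1.98), Syt10 (1.68) and Syt17 (1.66) also passed at the log2 ratios given. Syt10 rested on few UMIs, at 0.0548 and 0.029 against 0.0222 and 0.00236.

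Syt4 and Syt11, a pair of atypical synaptotagmins, did not pass. Syt4 was at 3.57 and 5.34 in neuron-like and 2.33 and 5.06 in non-neuronal nuclei (log2 ratio 0.32, 0.27 to 0.36). Syt11 was at 3.52 and 4.61 against 2.21 and 3.81 (log2 ratio 0.47, 0.42 to 0.51). For both, the male non-neuronal level was above the female neuron-like level. Syt3, Syt5, Syt13 and Syt15 lay between -0.21 and 0.56. Syt12 was the exception, at 0.0399 and 0.0397 in vagal neuron-like nuclei and at 0.141 and 0.0827 in non-neuronal nuclei (log2 ratio -1.45, -1.81 to -1.09).

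All 4 Rims genes and all 3 synapsin genes passed. Rims1, a scaffold that binds Rab3, Munc13 and calcium channels, was at 4.69 and 3.17 against 0.964 and 0.56 (log2 ratio 2.30, 2.21 to 2.39). Rims2, the other long form, was at 8.27 and 6.84 against 1.11 and 0.787 (log2 ratio 2.97, 2.89 to 3.04). For both, the female level was the higher in either class. The short forms Rims3 and Rims4 were at log2 ratios of 1.58 and 1.37. Syn1 was at 2.12 and 1.98 against 0.476 and 0.886 (log2 ratio 1.52, 1.43 to 1.62), Syn2 at a log2 ratio of 1.78 and Syn3 at 1.02. Syn2 shares 10314 bases with Timp4 on the opposite strand, which had 1121 UMIs in all against 11450 for Syn2. Gm17482, on the same strand, shares 31952 bases with Syn2 and had 0 UMIs. The sources used here do not say whether counting used the strand, and whether Timp4 reads entered the Syn2 count was not tested. Syn3 lay at the 2-fold limit and did not pass against the named non-neuronal classes alone (0.84) or in nuclei over 2000 UMIs (0.95).

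No complexin passed. Cplx1, the main complexin of hindbrain and sensory synapses, was at 0.8 and 1.05 against 0.523 and 0.961 (log2 ratio 0.34, 0.24 to 0.44), and Cplx2 was at a log2 ratio of 0.43. Of the SV2 genes, only Sv2c, a receptor of botulinum toxin A, passed, at 4.45 and 4.67 against 1.01 and 2.06 (log2 ratio 1.53, 1.47 to 1.59). Sv2b was just under the limit at 0.98. Sv2a, the target of the drug levetiracetam, was at 0.461 and 0.658 against 0.301 and 0.549 (log2 ratio 0.45, 0.32 to 0.58), so that the male non-neuronal level was above the female neuron-like level.

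**Figure D2:**
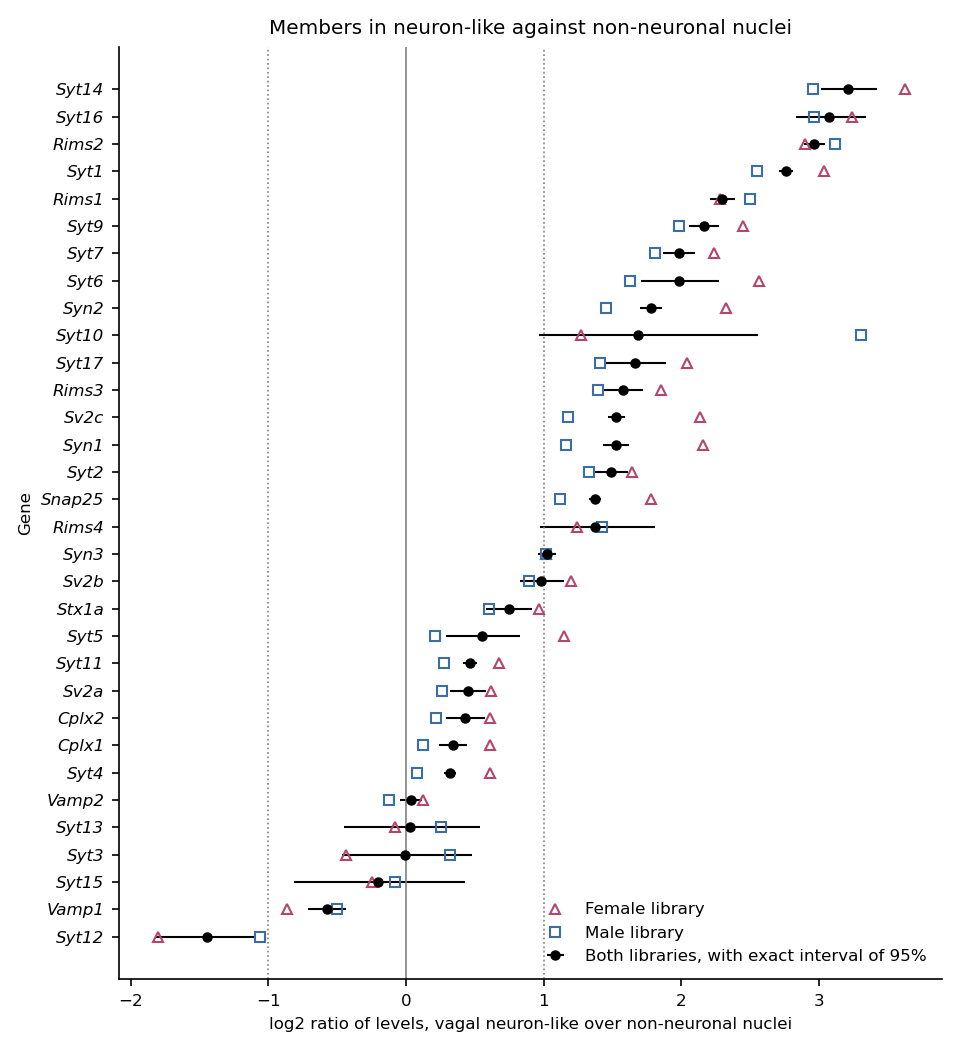
Log2 ratio of the level in vagal neuron-like over non-neuronal nuclei for 32 genes (rows), with both libraries summed (points with 95% counting intervals) and each library on its own (separate symbols). The order runs from Syt14 at 3.21 to Syt12 at -1.45, and the female ratio is the larger one for 23 of the 32 genes.

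The ratio was on the same side in both libraries for 29 of the 32 genes. The female ratio was the larger for 23 of 32, with a female median of 1.26 and a male median of 1.14. The make-up of the non-neuronal class differed between the libraries. An unnamed cluster led by the adipocyte list held 610 female and 101 male nuclei, and the fibroblast-like class 55 and 708. The 32 genes had a median of 27.0% of the vagal neuron-like level in that cluster and 45.7% in the fibroblast-like class. The part of this make-up in the ratios was not tested. Non-neuronal nuclei held RNA that neurons are known for. A list of 22 sensory neuron genes had non-neuronal levels with a median of 54.2% of the vagal neuron-like level (21 to 130%), and the 32 release genes had a median of 38.5% (10.8 to 273%). Syt1, Syt14, Syt16, Rims1 and Rims2 lay below the lowest value of that list, Syt12 and Vamp1 above its highest, and the other 25 genes within its range. How much of the non-neuronal level is free RNA from neurons was not tested. Macrophage-like nuclei, which are not of neurons, were taken as a reference. Whether they make some of these genes themselves was not tested. Against them the log2 ratios ran from -1.01 to 3.75 with a median of 1.40. Of the 32 genes, 19 were higher in neurons and 1 lower (Syt15, with 2 UMIs in macrophage-like nuclei), against 16.1% and 21.2% of all genes.

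The share of nuclei with a UMI gave a similar order. Each nucleus was thinned to 1000 UMIs, which left out 19 female nuclei. Of vagal neuron-like nuclei 52.2% then had Syt1 (83.5% as sequenced), against 21% of macrophage-like nuclei. The median depths before thinning were 7258 and 1802 UMIs. Rims1 was found in 20.4% of thinned vagal neuron-like and 4.78% of macrophage-like nuclei, and Sv2c in 33.4% and 11.4%. Cplx1 was found in 9.93% and 8.82% and Stx1a in 4.05% and 2.94%. For these 2 genes the share in neurons was close to that in macrophage-like nuclei at this depth. By level, Stx1a was at least 2-fold higher than in macrophage-like nuclei (log2 ratio 1.26, 0.45 to 2.40), from 10 macrophage-like UMIs. Cplx1 was not (0.24, -0.17 to 0.71).

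Ratios went along with the length of the gene. The 16 longer genes (60.5 to 520 kb) had a median log2 ratio of 1.88, and 15 of them were called higher. The 16 shorter genes (3.90 to 59.5 kb) had a median of 0.38, and 3 were called higher. Across the 32 genes, log10 length and the log2 ratio had a Pearson r of 0.73 and a Spearman rho of 0.78. The same measures were 0.05 and 0.06 over 19056 genes, 0.61 and 0.52 over the 22 sensory neuron genes, and 0.63 and 0.61 over 53 other genes of the pathway. These are descriptions across genes of the same 2 libraries, and genes are not independent. Introns were counted, and the part of length in the ratios was not tested. Per 100 kb of gene, the vagal neuron-like level was 50.1 for Syt4, 33.7 for Vamp2, 14.1 for both Snap25 and Syt11, 2.95 for Syt1, 1.62 for Stx1a and 0.698 for Rims1. On this per-length scale the short SNARE gene Vamp2 was above Syt1, the reverse of the order per 10000 UMIs alone.

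**Figure D3:**
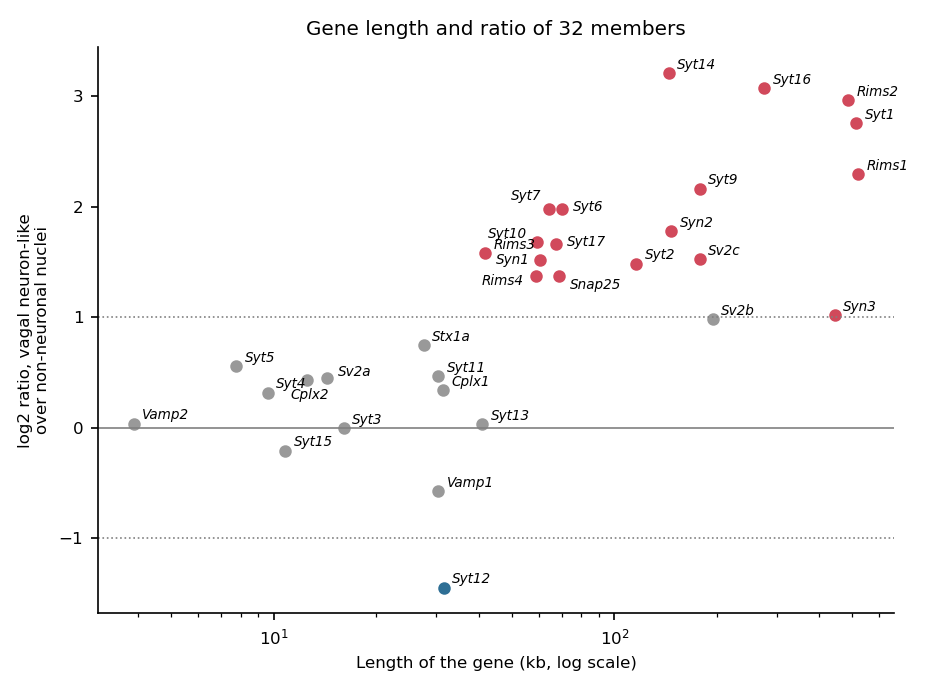
Length of each of 32 genes in kb (log scale) against its log2 ratio of levels, vagal neuron-like over non-neuronal nuclei, each point a gene. Most genes over 60.5 kb lie above 1 and most shorter ones below, with Vamp2 (log2 ratio 0.04) and Syt4 (0.32) among the short genes.

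Within the non-neuronal nuclei, 2 of 29 genes were at least 2-fold higher in their highest class than in the second, against 14.9% of all genes under the same rule. Syt12, a synaptotagmin that does not bind calcium, was at 0.786 in female and 0.544 in male barrier fibroblast-like nuclei. Over both libraries this was 0.652 (110 UMIs), 6.796-fold the level of the next class and above the 0.0397 of vagal neuron-like nuclei. These nuclei held 110 of the 165 Syt12 UMIs of the non-neuronal class. Syt15 was at 0.181 and 0.146 in endothelial cell-like nuclei, 0.163 over both (20 UMIs), 3.79-fold the level of the second class (2 UMIs). Both libraries had these genes highest in the same class, but Syt15 rests on few molecules and did not pass within either library alone, which left 1 gene without the female library. Syn3 reached 2.19 in Schwann cell-like and 2.23 in barrier fibroblast-like nuclei and 0.425 in macrophage-like nuclei. It shares 49135 bases with Timp3, an inhibitor of matrix metalloproteinases on the opposite strand, whose level in these 3 classes was 5.98, 5.68 and 1.04. As for Syn2, the sources used here do not say whether counting used the strand. Whether Timp3 reads entered the Syn3 count was not tested.

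Among the 5 vagal neuron-like clusters, 19 of 30 genes differed at least 2-fold between the highest and the lowest cluster, against 47.8% of all genes, with a median log2 range of 1.21 against 0.99. Without the male library 8 differed, and 5 of these were among the 19. In that setting the female nodose and jugular clusters fell under the minimum of 100 nuclei. Syt10, with its highest and lowest level in other clusters, no longer passed either. The share of all genes is not given for that setting. The jugular neuron-like cluster was the highest or the lowest for all of the 19 but Syt10 and Syt12. Jugular neurons derive from the neural crest and nodose neurons from epibranchial placodes, and both send vagal sensory fibres to the brainstem.

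In jugular over nodose neuron-like nuclei, 5 genes were higher, 12 lower and 15 neither, against 8.12% higher and 22.7% lower among all genes. The median log2 ratio was -0.68 for the 32 genes and -0.26 for all genes, and 30 of 32 lay on the same side in both libraries. The 5 higher genes were an active zone scaffold, 3 synaptotagmins and Sv2b. Rims1 was at 8.86 in female and 8.53 in male jugular nuclei and at 1.26 and 1.16 in nodose nuclei (log2 ratio 2.87, 2.76 to 2.98). Syt7 was at 4.92 and 5.78 against 0.342 and 0.831 (log2 ratio 2.89, 2.75 to 3.03). Syt6 was at 1.27 and 0.908 against 0.0417 and 0.119 (log2 ratio 3.30, 2.94 to 3.70). For these 3 genes both jugular levels were far above both nodose levels. Syt9 (1.18) and Sv2b (1.05) were nearer the limit, and Sv2b did not pass in the female library alone (0.70), in the mean of both libraries or as a mean over nuclei.

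The 12 lower genes included the SNARE genes Snap25 and Vamp2. Syt17, a calcium-independent synaptotagmin, was at 0.0169 and 0.0444 in jugular and 0.791 and 0.496 in nodose nuclei (log2 ratio -3.96, -4.79 to -3.30). Syt16 was at 0.158 and 0.108 against 1.12 and 0.789 (log2 ratio -2.74, -3.16 to -2.37). Sv2a was at 0.147 and 0.276 against 1.29 and 1.18 (log2 ratio -2.38, -2.68 to -2.10). In each, both jugular levels were under both nodose levels. Syt4 was at 2.01 and 2.97 against 6.86 and 8.97 (log2 ratio -1.71), Vamp2 at 0.756 and 1.02 against 1.85 and 2.24 (-1.23), and Snap25 at 5.43 and 5.57 against 11.3 and 11 (-1.002). In non-neuronal nuclei Sv2a, Syt4 and Vamp2 were at 73.3%, 80.1% and 97.4% of the vagal neuron-like level. In each library their jugular levels were under the non-neuronal level given above, and those of Syt16 and Snap25 over it. The part of free RNA in these ratios was not tested. The remaining 6 were Syt13 (-2.43), Rims4 (-1.81), Syt15 (-1.74), Syt2 (-1.57), Syn3 (-1.33) and Cplx2 (-1.18). Syt15 rested on 4 jugular and 19 nodose UMIs and did not pass in either library alone, and Syt13 (5 and 38 UMIs) and Rims4 did not pass in the female library alone. Snap25 lay at the 2-fold limit itself and did not pass in the male library alone. With clusters rebuilt after scaling within each library, 7 genes were lower, and Syt4, Vamp2, Snap25, Syt2 and Cplx2, along with Syt9 among the higher genes, no longer passed. Syt1 (0.52), Syn1 (0.45), Sv2c (-0.10), Stx1a (-0.82) and Cplx1 (-0.67) did not pass.

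The order of the 5 clusters differed from gene to gene. For Rims1 it ran from jugular through Trpm8-led, Cntnap5a-led and Hs3st4-led to nodose, and the Trpm8-led and Cntnap5a-led levels had overlapping intervals. For Syt4 it ran the other way, from nodose through Hs3st4-led, Trpm8-led and Cntnap5a-led to jugular, with all neighbours apart. Sv2c was the most even of the 30 genes, at most 1.25-fold apart. The Trpm8-led and Hs3st4-led clusters were the shallower ones, with medians of 4319 and 2009 UMIs. The nodose cluster also carried genes of sympathetic neurons. Of a list of 7 such genes, none in the nodose list, the log2 fold averaged 1.01 there, the same as for the nodose list, and 0.71 in the Hs3st4-led cluster, where the neuron list averaged 0.69. Its genes summed to 4.76 in female and 7.48 in male nodose nuclei, 0.709 and 7.19 in Hs3st4-led nuclei and 0.214 and 0.981 in jugular nuclei. That list was at 0.683 in female and 4.88 in male non-neuronal nuclei, and its part in the difference between the clusters was not tested.

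**Figure D4:**
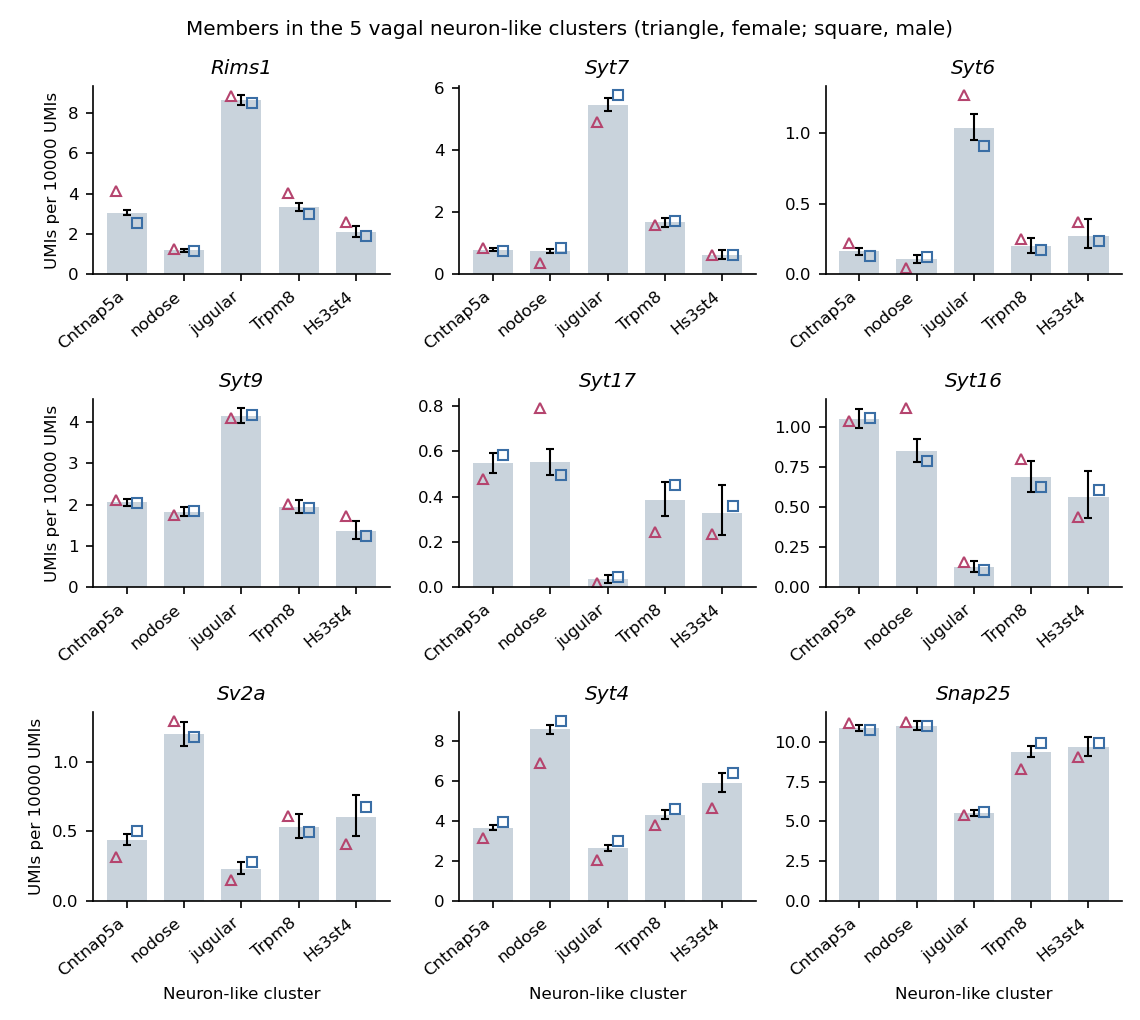
Level (UMIs per 10000 UMIs) of 9 genes in each of the 5 vagal neuron-like clusters, as bars for both libraries summed with 95% counting intervals, triangles for the female and squares for the male library. Rims1 and Syt7 stand out in the jugular cluster (8.86 and 8.53 for Rims1), whereas Syt17, Sv2a and Snap25 are lowest there.

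In granule-like over vagal neuron-like nuclei, 6 genes were higher, 9 lower and 17 neither, against 14% higher and 6.63% lower among all genes. The median log2 ratio was -0.47 for the 32 genes and -0.05 for all genes. The 22 male granule-like nuclei held only 46728 UMIs, so the male values of low genes rest on a handful of molecules. Granule-like nuclei came mostly from the female and vagal neuron-like nuclei mostly from the male library, so ratios within each library are given where the male class held UMIs. In the male library alone 9 genes were higher and 5 lower, and 9 of the 15 calls were shared. Among these, Syt3, Syt10, Syt13 and Syt15 on the higher side and Syt6 on the lower had 0 male granule-like UMIs. Their male ratios rest on the 0.5 UMIs added, and Syt3, Syt6 and Syt13 are among the shared calls. In the female library alone 6 were higher and 8 lower, with 13 of the 15 calls shared. The shares of all genes above are for both libraries together. The counts within each library alone have no such share beside them and are not a result about the members as a set.

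Rims1 was at 24.4 in female and 13.5 in male granule-like nuclei against 4.69 and 3.17 in vagal neuron-like nuclei (log2 ratio 2.72, within libraries 2.38 and 2.10). Thinned to 1000 UMIs, 86.8% of granule-like and 20.4% of vagal neuron-like nuclei had a Rims1 UMI. Sv2b was at 3.43 and 3.42 against 0.664 and 0.501 (log2 ratio 2.64, within libraries 2.37 and 2.82). Both granule-like levels were above both vagal levels for these 2 genes. Syt12 was at 0.44 and 0.214 against 0.0399 and 0.0397 (log2 ratio 3.45, within libraries 3.46 and 3.01), with the male value from 1 UMI. Syt13 (2.84), Rims4 (2.14) and Syt3 (1.502) were at 0 UMIs in male granule-like nuclei, where the side was set by the 0.5 UMIs added, so these 3 calls rest on the female library (2.65, 2.29 and 1.69). Rims4 did not pass as a mean over nuclei or with clusters scaled within library, nor Syt3 in the mean of both libraries.

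Sv2c was at 0.757 and 1.07 in granule-like against 4.45 and 4.67 in vagal neuron-like nuclei (log2 ratio -2.57, within libraries -2.55 and -1.99). The 2 SV2 genes Sv2b and Sv2c thus differed in opposite directions, in both libraries, while Sv2a was near even (-0.03). Stx1a was at 0.106 and 0.214 against 0.461 and 0.44 (log2 ratio -1.97, within libraries -2.07 and -0.45), and only its female values were 2-fold apart. Its male granule-like level came from 1 UMI. Syn3 was at 1.49 and 1.5 against 3.24 and 3.29 (log2 ratio -1.13), lower by a like amount in each library. Syt16 was lower (-2.16, within libraries -2.23 and -1.24), with the male value from 1 granule-like UMI. Syt17 (-2.76, within libraries -2.76 and -0.48) had 1 male granule-like UMI and did not pass in the male library alone or in nuclei over 2000 UMIs. Syt6 (-2.33) and Syt5 (-1.496) had 0 male granule-like UMIs and rest on the female library (-2.72 and -1.25). Syt11 (-1.12) and Vamp2 (-1.08) passed over both libraries together but not in either one or in the mean of both, at -0.90 and -0.14 for Syt11 and -0.68 and -0.31 for Vamp2. Snap25 (0.44), Syt1 (0.52) and Syn1 (-0.87) did not pass.

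**Figure D5:**
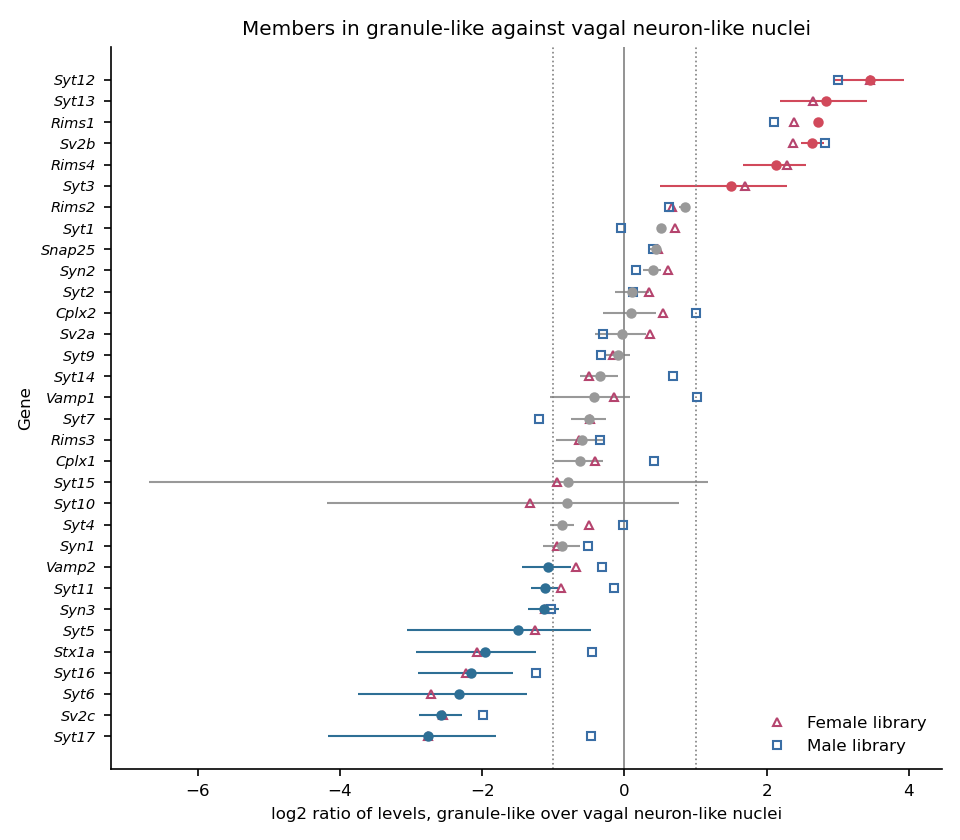
Log2 ratio of the level in granule-like over vagal neuron-like nuclei for each gene (rows), both libraries summed (points with 95% counting intervals, coloured where the 2-fold rule was passed) and each library with at least 1 granule-like UMI on its own (triangles female, squares male). Syt12, Syt13, Rims1 and Sv2b lie farthest to the right (3.45 to 2.64), Syt17 and Sv2c farthest to the left (-2.76 and -2.57).

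Between male and female vagal neuron-like nuclei, 0 of 32 genes differed at least 2-fold, against 2.28% of all genes higher and 1.44% lower in the male library. The study's own list of differential expression between females and males, from a single-cell test, holds Rims1, Syt4 and Syt11. That test and the 2-fold rule used here are not alike. Values ran from -0.92 (Syt10, -1.52 to -0.31) to 0.68 (Cplx2, 0.49 to 0.87), and no test was possible with 1 library of each sex. Rims1 was lower in the male library (-0.56, -0.62 to -0.50), and the female level was the higher in each of the 5 clusters, by little in the jugular (-0.06) and nodose (-0.12) clusters and by most in the Cntnap5a-led cluster (-0.72). Its female level was also the higher in non-neuronal nuclei, at 0.964 against 0.56. Vamp2 (0.59, 0.48 to 0.71) and Syt4 (0.58, 0.52 to 0.64) were higher in the male library, in each of the 5 clusters and in non-neuronal nuclei. Of the vagal neuron-like nuclei, 372 of 1622 (male) and 61 of 675 (female) were in the nodose cluster, and the sympathetic list summed to 4.69 and 1.23 over the class. Sex, library and the make-up of the dissected tissue cannot be told apart here.

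Another 59 genes of vesicle docking, fusion, recycling and filling were set beside the 33, and 54 of them had enough UMIs. In vagal neuron-like over non-neuronal nuclei 21 were higher and 0 lower, against 15% and 19.9% of all genes, with a median log2 ratio of 0.56. The largest ratios belonged to Cacna1b, the pore of the N-type calcium channel (3.10), Cadps, a priming factor of dense-core vesicles (2.93), and Rimbp2, which links RIMs to calcium channels (2.87). In jugular over nodose neuron-like nuclei 5 were higher and 16 lower, beside 8.12% and 22.7% of all genes, led by the vesicular glutamate transporter Slc17a8 (4.26), the vesicle protein Synpr (1.996) and Rab27b (1.93) on the higher side and by the calcium sensor Doc2b (-4.34) and Rab3b (-3.59) on the lower. Slc17a8 rested on 66 jugular and 4 nodose UMIs (2.47 female and 4.94 male), and Doc2b on 6 and 171. In granule-like over vagal neuron-like nuclei 12 were higher and 7 lower, beside 14% and 6.63% of all genes, led by Cadps2 (4.48), Slc17a7 (3.47) and Stxbp5l (2.49) and by Rimbp2 (-2.59), Rab27b (-2.43) and Cacna1b (-1.78). Between the sexes 2 were higher in the male library and 0 lower, beside 2.28% and 1.44% of all genes. The 2 were the monoamine transporter Slc18a2 (1.72), a gene of the sympathetic list, and Doc2b (1.19). Of the 368 vagal neuron-like UMIs of Doc2b, 171 were in the nodose cluster. The part of that cluster in the ratio of Doc2b was not tested.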

How the data were processed

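Nuclei of vagus nerve ganglia, flash-frozen and pooled by sex, were sequenced with a 3′ droplet assay. The authors deposited per-nucleus UMI counts of every gene, made with Cell Ranger 7.1.0 on mm10 with an added transgene sequence and with introns counted, scaled between libraries by reads mapped, after removal of debris and doublets. No doublets were called here, and no columns were left unused (0). Barcode suffixes gave the library, since their nuclei (3791 and 4923) equal the numbers stated for Female and Male.

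Nuclei were clustered (Louvain, 20 clusters at resolution 3.6, 10 principal components, 243 neighbours) on 23454 genes. Left out were the members, sex-linked genes and the study's list of differential expression between females and males. That list was selected on these samples and holds Rims1, Syt4 and Syt11. Clusters were named from marker lists with at least 3 markers at 1.5-fold, and 2 or more further lists at a mean log2 fold of 0.8 barred a name. The sympathetic, astrocyte, oligodendrocyte, general neuron, nodose and jugular lists were exempt and did not count as further lists. Without this exemption the nodose cluster would have had no name, with the sympathetic list at 1.01 and the neuron list at 0.83. Drgx was not matched, which left 8 jugular markers. UMI sums per 10000 were compared with exact Poisson, conditional binomial and Clopper-Pearson intervals (95%) for counting error alone, and the code was tested on simulated data. With 1 library of each sex no p-value was computed. All 33 members are accounted for. Members past the 2-fold rule in a comparison and the founders of each family are described with their values, other members by range and count, and from the pathway list the 3 largest ratios in each direction, of which 1 gene is not reported here. Members, lists and naming limits were chosen with earlier results of these data known. The jugular over nodose comparison, the comparison among non-neuronal classes and 2 alternatives were added after seeing the data. Tools were Python 3.11.15, numpy 2.4.6, scipy 1.17.1, scikit-learn 1.9.0, python-igraph 0.11.9 and matplotlib 3.10.9.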

Additional observations from a re-analysis of the deposited data

How the results depend on the processing

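With 1 library of each sex, all values are descriptions, and UMIs per gene limit the low members. Alternatives were other amounts added to the sums, other minimum counts, deep nuclei alone, a mean over nuclei, clusters rebuilt with the members kept or scaled within library, each library alone and, added after seeing the data, the vagal class without its shallow cluster and the named non-neuronal classes alone. Further alternatives were a mean of the libraries and, as the reference, a mean over the non-neuronal classes or macrophage-like nuclei alone. Across all of these, 17 to 19 of the 19 calls in neuron-like over non-neuronal nuclei were shared with the reported ones. The 17 came with macrophage-like nuclei alone. Shared calls were 9 to 15 of the 15 in granule-like over vagal and 11 to 17 of the 17 in jugular over nodose. A call needs the same side in each library, so directions could not turn when a library was left out. Against macrophage-like nuclei alone the sign of Syt12 turned, at 0.59 (-1.34 to 6.48), from 1 macrophage-like UMI. This was under 2-fold, and the libraries lay on opposite sides (-0.44 female and 1.22 male). The median log2 ratio of the members was 1.28 with the named non-neuronal classes alone, and 1.14 without the female and 1.26 without the male library. With each library left out in turn, members lower in granule-like nuclei numbered 5 to 8 and members that differed between clusters 8 to 18. The 8 came without the male library, where the nodose (61) and jugular (86) clusters were under the minimum of 100 nuclei. Members at least 2-fold higher in 1 non-neuronal class numbered 1 to 2 without each library and 1 with the members kept in the clustering. With clusters scaled within library, 7 members were lower in jugular than in nodose nuclei. As a mean over nuclei, 1 member (Cplx2) differed between male and female. The cause of these changes was not tested. Shares of all genes are given for the reported settings only, so whether these changes in counts are particular to the members was not tested. No paired analysis was possible because each group holds 1 library.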
